A study of Bos taurus with 15 samples.

Results

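The MYC, MAX and MLX network is a family of basic helix-loop-helix leucine zipper transcription factors that pair with each other and bind the same short DNA motif, the E-box. Its members were taken by gene symbol and are MYC, MYCN, MAX, MXD1, MXD4, MXI1, MNT, MLX, MLXIP and MLXIPL. Each of these 10 genes had 1 transcript cluster, the set of probes that the array summarises into a single signal, among 26773 clusters on the array. Of all clusters, 18457 carried 1 gene symbol, 688 carried several and 7628 had none in the annotation used.

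MAX is the shared partner of the MYC arm. MYC-MAX dimers promote the transcription of genes for ribosomes, nucleotide synthesis and amino acid uptake, whereas dimers of MAX with MXD1, MXI1, MXD4 or MNT recruit SIN3 and histone deacetylases to the same motif and repress it. MLX is the corresponding partner of MLXIP (MondoA) and MLXIPL (ChREBP), which respond to glucose-derived metabolites and switch on genes such as TXNIP and ARRDC4. In the ovary, granulosa cells of growing follicles divide under follicle stimulating hormone (FSH) and insulin-like growth factor 1 (IGF-1), and they produce estradiol through aromatase.

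The arrays came from bovine granulosa cells of follicles below 6 mm, collected from abattoir ovaries, cryopreserved and cultured without serum for 8 days. All cultures received 20 ng/ml FSH, 50 ng/ml IGF-1 and 2 µM androstenedione, the substrate of aromatase. In the L-lactate group 30 mM sodium L-lactate was added, in the NaCl group 30 mM sodium chloride served as the vehicle and osmotic control, and the untreated group received neither. Each group had 5 arrays, 15 in all. NaCl is the closer control for L-lactate because it also carries the sodium load, and NaCl against untreated cells compares added salt with none. Whether the 5 samples of a group came from separate cell pools or cultures is not in the labels. The p-values cover the variation among the samples as given, which may be technical.

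The deposited signals were alike across arrays. The median log2 signal of an array lay between 4.52 and 4.60, and arrays of the same group correlated at 0.9955 to 0.9970 over all clusters. The signals had already been normalised across arrays, so these values do not measure the quality of the arrays. The labelled cell type was checked with marker genes. Of 8 granulosa markers, 7 were above the array median in every group, with FSHR at 8.98 ± 0.08, 9.27 ± 0.08 and 9.06 ± 0.07 (SD, n = 5) in L-lactate, NaCl and untreated cells. All 5 oocyte markers lay below the array median, as did 4 of 5 endothelial markers, while 4 of 5 stromal and 2 or 3 of 5 leukocyte markers lay above it. Of 4 theca markers, CYP17A1, the theca androgen enzyme, lay below it (3.97 ± 0.30, 3.78 ± 0.11 and 3.92 ± 0.35). The other 3 of 4 lay above it: INSL3 (7.01 ± 0.31, 7.06 ± 0.25 and 7.70 ± 0.13), NR5A1 and HSD3B1. The paper describes HSD3B1 as expressed in granulosa cells too.

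A cluster was taken as differentially expressed when its Benjamini-Hochberg adjusted p from limma was below 0.05 and its fold change was above 1.5. Between L-lactate and NaCl, 505 clusters (1.89%) met both criteria and 22.2% had an adjusted p below 0.05 at any fold. Between L-lactate and untreated cells these shares were 3.27% (875 clusters) and 27.1%, and between NaCl and untreated cells 1.15% (307 clusters) and 11.9%. The 3 comparisons share arrays, so they are not independent of each other. Signals are on the log2 scale throughout, and differences are given as the first group minus the second. In RNA from whole cultures, fewer cells of a type and less RNA per cell cannot be told apart.

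**Figure D1:**
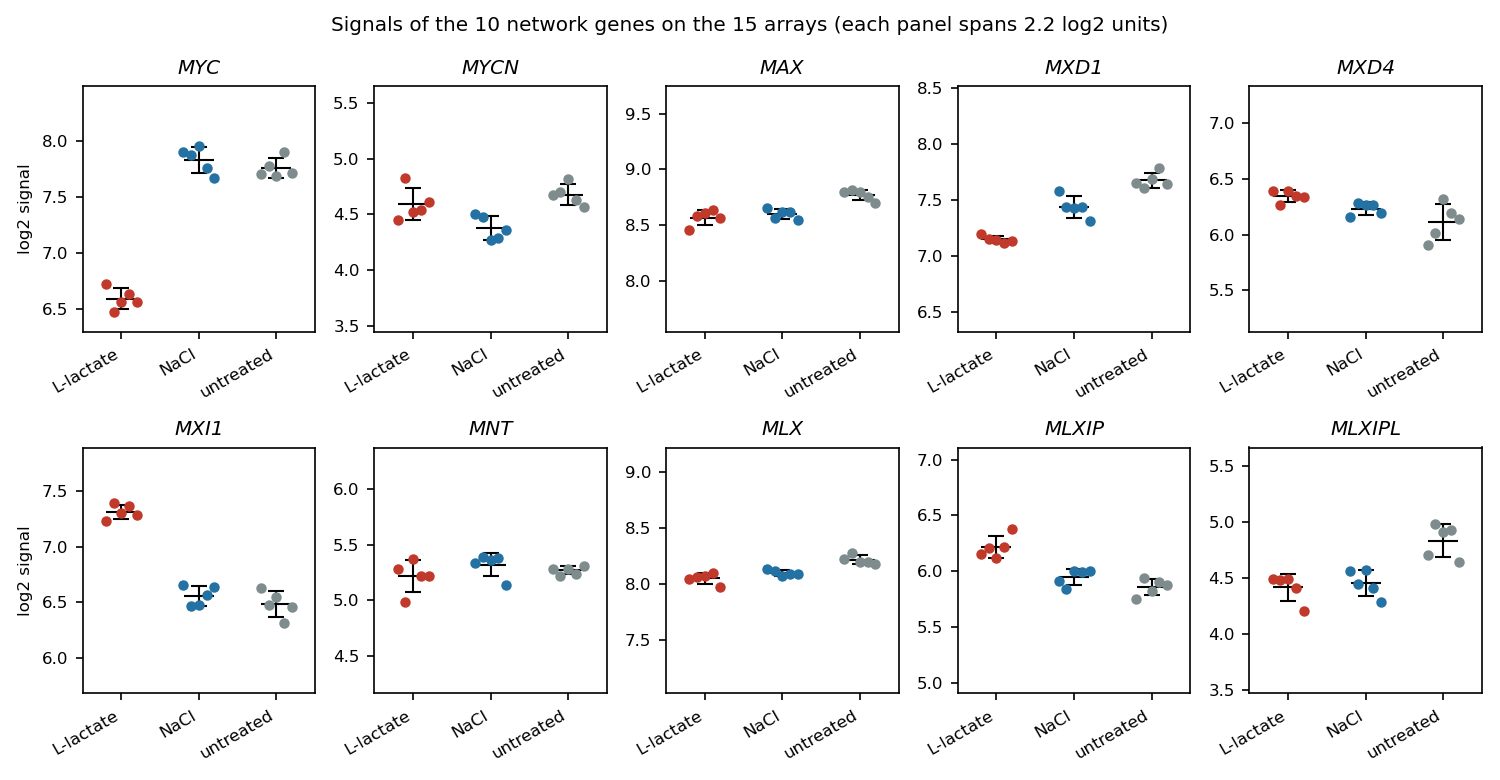
Log2 signal of the 10 network genes on each of the 15 arrays, 1 panel per gene, with the group in colour (L-lactate, NaCl and untreated), a point for each array and a bar for the mean with its SD (n = 5). The L-lactate arrays of MYC lie at 6.47 to 6.73, below all control arrays at 7.67 to 7.96, and those of MXI1 lie at 7.23 to 7.39, above all control arrays.

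MYC and MXI1 had the largest differences of the 10 members between L-lactate and each control, while their control groups overlapped. MYC, an activator of the family, was down-regulated in L-lactate treated cells. In NaCl treated cells its signal was 7.90, 7.87, 7.96, 7.76 and 7.67 on arrays 1 to 5, and in untreated cells it was 7.71, 7.78, 7.69, 7.90 and 7.71. In L-lactate treated cells it was 6.73, 6.47, 6.56, 6.64 and 6.57. Every L-lactate array was below every control array, and the lowest NaCl array was 0.94 above the highest L-lactate array.

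The mean of MYC fell from 7.83 ± 0.12 in NaCl cells to 6.59 ± 0.10 in L-lactate cells (SD, n = 5 each). This is a difference of −1.24 (SE 0.06, 95% confidence interval −1.37 to −1.11), which leaves 42.3% of the NaCl signal, a 2.36-fold reduction (limma, adjusted p = 2.33e-09). By absolute size it was number 53 of the 26773 differences. Against untreated cells (7.76 ± 0.09) the difference was −1.17 (SE 0.06, adjusted p = 2.91e-09). NaCl and untreated cells overlapped, and their difference of 0.07 had a confidence interval from −0.06 to 0.21 (adjusted p = 0.545).

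MXI1, a MAX partner that opposes MYC, went the other way. Its 5 signals were 7.23, 7.39, 7.30, 7.36 and 7.29 under L-lactate. They were 6.66, 6.47, 6.47, 6.57 and 6.64 under NaCl and 6.63, 6.48, 6.55, 6.32 and 6.46 in untreated cells. No L-lactate array overlapped a control array, and the gap to the highest NaCl array was 0.57.

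On average MXI1 rose from 6.56 ± 0.09 to 7.31 ± 0.06, a difference of 0.75 (SE 0.06, 95% confidence interval 0.63 to 0.87) or 1.68-fold (limma, adjusted p = 1.91e-07). Against untreated cells (6.49 ± 0.12) it rose by 0.82 (SE 0.06), or 1.77-fold, with an adjusted p of 4.59e-08. NaCl and untreated cells differed by 0.07 (confidence interval −0.05 to 0.20, adjusted p = 0.502). The exact two-sided permutation test over 252 labellings of the arrays gave p = 0.00794 for MYC and for MXI1 in each L-lactate comparison, the smallest value that 5 against 5 arrays allow.

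Among the 10 members, MYC and MXI1 were the 2 differentially expressed genes in L-lactate against NaCl, and the same 2 genes were differentially expressed in L-lactate against untreated cells. The shares of all clusters were 1.89% and 3.27%. Without the fold criterion, 5 of 10 members passed the adjusted p against NaCl (3 higher and 2 lower, beside 10.7% of all clusters higher and 11.5% lower). Against untreated cells 8 of 10 passed (3 higher and 5 lower, beside 13.3% and 13.7%). The median difference of the members was −0.04 against NaCl and −0.13 against untreated cells, beside −0.01 and −0.02 for all clusters. Members passed the adjusted p in both directions in both comparisons.

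**Figure D2:**
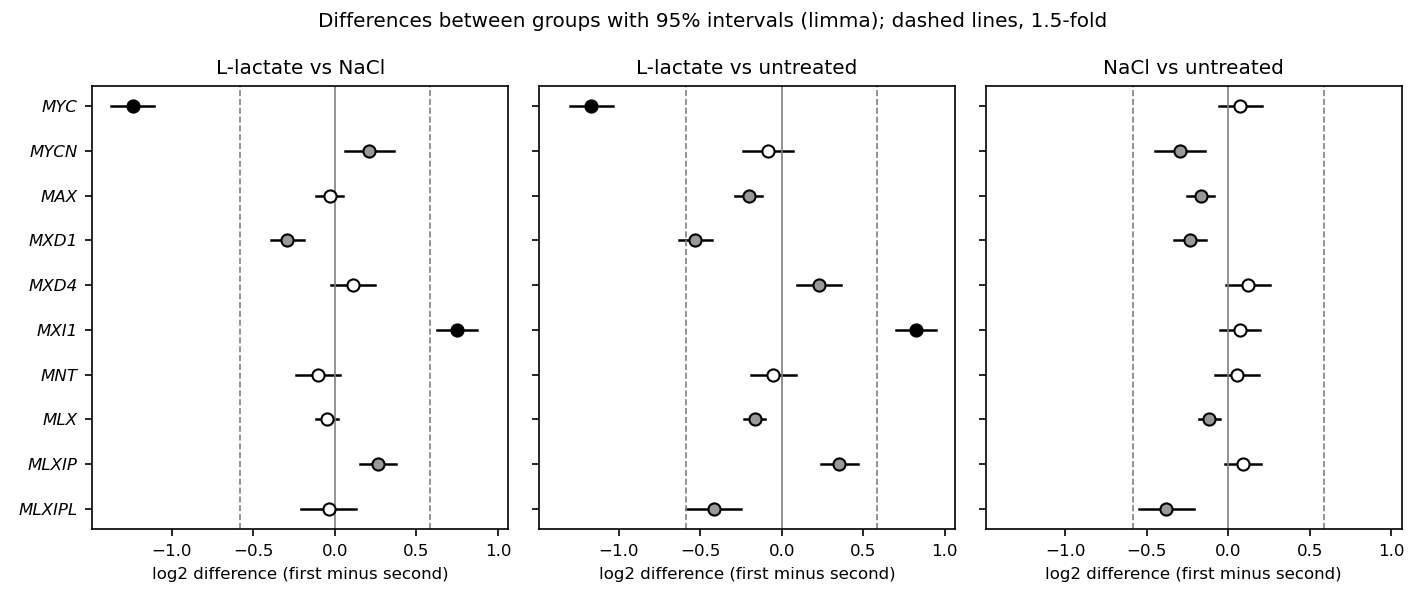
Differences in log2 signal of the 10 network genes for L-lactate against NaCl, L-lactate against untreated and NaCl against untreated, drawn as points with 95% confidence intervals from limma and with dashed lines at the 1.5-fold threshold. Black points passed the adjusted p and the fold criterion, grey points the adjusted p alone, and open points neither. MYC (−1.24 and −1.17) and MXI1 (0.75 and 0.82) pass the threshold in both L-lactate comparisons and lie near 0 for NaCl against untreated.

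The other MAX partners of the repressor type showed smaller and unlike differences. MXD1, which is known to rise when cells differentiate, read 7.20, 7.15, 7.15, 7.11 and 7.13 under L-lactate, 7.58, 7.43, 7.43, 7.43 and 7.31 under NaCl, and 7.66, 7.61, 7.69, 7.79 and 7.64 in untreated cells. The 3 groups formed steps without overlap, untreated highest and L-lactate lowest. L-lactate cells (7.15 ± 0.03) were 0.29 below NaCl cells (7.44 ± 0.10, SE 0.05, adjusted p = 0.000245), and NaCl cells were in turn 0.24 below untreated cells (7.68 ± 0.07, adjusted p = 0.00297). The whole step from untreated to L-lactate was −0.53 or 1.44-fold (adjusted p = 4.93e-07), short of the fold criterion.

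Thus MXD1 and MXI1, which both compete with MYC for MAX, differed in opposite directions between L-lactate and NaCl. MXD4 read 6.26 to 6.39 under L-lactate, 6.16 to 6.28 under NaCl and 5.91 to 6.31 in untreated cells, and every pair of groups overlapped. It was 0.23 higher in L-lactate than in untreated cells (SE 0.06, adjusted p = 0.0115) and 0.11 higher than in NaCl cells (confidence interval −0.02 to 0.25, adjusted p = 0.254). MNT, the broadly expressed repressor of the family, had means of 5.22 ± 0.14, 5.32 ± 0.10 and 5.27 ± 0.04 in L-lactate, NaCl and untreated cells. The groups of MNT overlapped in all comparisons, with adjusted p-values of 0.313, 0.632 and 0.695.

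MAX, the obligate partner of MYC, and MLX, the partner of MLXIP and MLXIPL, were lower in both salt groups than in untreated cells. MAX read 8.46, 8.58, 8.61, 8.63 and 8.57 under L-lactate, 8.65, 8.56, 8.62, 8.62 and 8.55 under NaCl, and 8.79, 8.81, 8.80, 8.75 and 8.70 in untreated cells. Both salt groups lay below all untreated arrays and overlapped each other. L-lactate (8.57 ± 0.07) and NaCl (8.60 ± 0.04) differed by −0.03 (confidence interval −0.12 to 0.05, adjusted p = 0.658), while both were lower than untreated cells (8.77 ± 0.05), by −0.20 (adjusted p = 0.000891) and −0.17 (adjusted p = 0.00825).

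MLX gave 8.05 ± 0.05, 8.10 ± 0.03 and 8.22 ± 0.04 in L-lactate, NaCl and untreated cells. L-lactate and NaCl overlapped (difference −0.05, adjusted p = 0.319), and no array of a salt group reached the lowest untreated array at 8.18. The differences from untreated cells were −0.17 (SE 0.03, adjusted p = 0.000789) for L-lactate and −0.12 (SE 0.03, adjusted p = 0.0241) for NaCl. The latter passed 0.05 narrowly: it was 0.0634 without NaCl array 3, 0.0531 without NaCl array 4, 0.0667 without untreated array 2, 0.0756 with array medians made equal and 0.0508 with the 10 arrays of the comparison alone.

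The 2 glucose-responsive partners of MLX differed from each other. MLXIP, the gene of MondoA, read 6.16, 6.20, 6.12, 6.21 and 6.38 under L-lactate, 5.92, 5.84, 6.00, 5.99 and 6.00 under NaCl, and 5.75, 5.94, 5.82, 5.90 and 5.88 in untreated cells. Every L-lactate array was above every control array, and the controls overlapped. L-lactate cells (6.21 ± 0.10) were 0.26 above NaCl cells (5.95 ± 0.07, SE 0.05, adjusted p = 0.00149) and 0.35 above untreated cells (5.86 ± 0.07, SE 0.05, adjusted p = 8.71e-05). Both differences were below the fold criterion, the larger at 1.28-fold.

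MLXIPL, the gene of ChREBP, lay close to the median of the arrays. It read 4.49, 4.48, 4.49, 4.41 and 4.203 under L-lactate, 4.56, 4.44, 4.57, 4.41 and 4.28 under NaCl, and 4.71, 4.98, 4.91, 4.93 and 4.64 in untreated cells. L-lactate and NaCl overlapped, and both lay wholly below the untreated arrays. The means were 4.42 ± 0.12, 4.45 ± 0.12 and 4.83 ± 0.15. L-lactate differed from NaCl by −0.04 (adjusted p = 0.821) and from untreated cells by −0.42 (SE 0.08, adjusted p = 0.000822), and NaCl differed from untreated cells by −0.38 (SE 0.08, adjusted p = 0.00452).

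MYCN, the MYC relative best known from the nervous system, was also near the array median. It read 4.45, 4.83, 4.52, 4.54 and 4.62 under L-lactate, 4.50, 4.47, 4.28, 4.29 and 4.36 under NaCl, and 4.67, 4.70, 4.82, 4.63 and 4.57 in untreated cells. NaCl was the lowest group, below all untreated arrays and overlapping with L-lactate. NaCl cells (4.38 ± 0.11) were 0.30 below untreated cells (4.68 ± 0.10, SE 0.07, adjusted p = 0.0117).

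L-lactate cells had a MYCN mean of 4.59 ± 0.15, which was 0.21 above NaCl (SE 0.07, adjusted p = 0.0449) and not separable from untreated cells (difference −0.09, adjusted p = 0.441). The difference against NaCl stayed between 0.152 and 0.247 over 23 alternatives, but its adjusted p did not always stay below 0.05. Its adjusted p was 0.0513 to 0.109 without any of L-lactate arrays 2 to 5, NaCl arrays 3 to 5 or untreated arrays 1, 2 and 4, and it was 0.0729 with the 10 arrays of the comparison alone and 0.0605 without moderation of the variance. No fall of MYCN against either control was found.

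In NaCl against untreated cells, limma found 0 of 10 members differentially expressed. At an unadjusted p below 0.05, 5 members passed, and the same number passed the adjusted p, all lower with NaCl: MYCN, MAX, MXD1, MLX and MLXIPL. Of all clusters 5.81% were lower and 6.13% higher at the adjusted p, and their share at an unadjusted p was not computed. An unmoderated analysis of variance also gave 0 members past both criteria. The median of the members was −0.03 and that of all clusters was 0.00.

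From lowest to highest, the differences between L-lactate and NaCl ran in the order MYC, MXD1, MNT, MLX, MLXIPL, MAX, MXD4, MYCN, MLXIP and MXI1. The 5 genes from MNT to MXD4 did not pass the adjusted p. After the group means were subtracted, the Pearson correlations of the 45 pairs of members over the 15 arrays ran from −0.66 for MYC with MXI1 to 0.60 for MYC with MXD1. These values are descriptions only, since arrays processed together share their normalization.

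**Figure D3:**
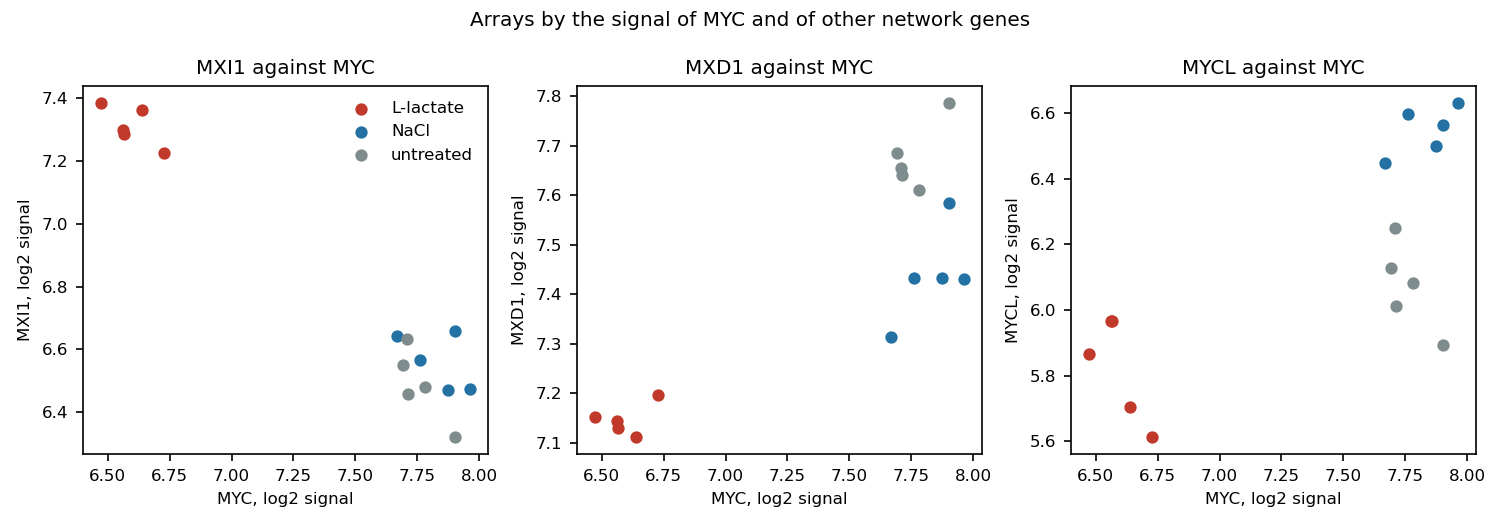
Log2 signals of MXI1, MXD1 and MYCL (vertical axes) against that of MYC (horizontal axis) on the 15 arrays, 1 panel per gene, with a point for each array and the group in colour. The 5 L-lactate arrays sit apart at a MYC signal of 6.73 or below, with MXI1 above all control arrays and MXD1 below them, while the MYCL signals of L-lactate and untreated arrays overlap.

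The genes whose pattern over the 15 arrays was most like that of MYC were sought among 18456 other clusters with 1 symbol, by Pearson correlation. They were DCAF11 (0.990), a substrate receptor of a ubiquitin ligase, VNN1 (0.989), PPM1K (0.988), UCK2 (0.988), a kinase that salvages pyrimidine nucleosides, and SLC25A33 (0.986), a mitochondrial pyrimidine nucleotide carrier. The most opposite genes were TXNIP (−0.991), ARRDC4 (−0.990) and GULO (−0.989). For MXI1 the closest were FDX1 (0.982), the ferredoxin that feeds electrons to steroidogenic enzymes, TMEM176B (0.982), DUSP15 (0.981), MDH1 (0.979) and OTUD5 (0.978). The most opposite to MXI1 were DCAF11 (−0.988), EIF3H (−0.985) and DDR2 (−0.985). Any gene that separated L-lactate from both controls scores high on this measure, so it describes the shape of a pattern and nothing more.

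Of the 3 further network genes on the array, MYCL was the one that differed. Under L-lactate MYCL read 5.61, 5.87, 5.97, 5.70 and 5.97, under NaCl 6.56, 6.50, 6.63, 6.60 and 6.45, and in untreated cells 6.25, 6.08, 6.13, 5.89 and 6.01. NaCl was the highest group without overlap, and L-lactate and untreated arrays overlapped. MYCL was down-regulated in L-lactate against NaCl by −0.72 (SE 0.08, 1.65-fold, adjusted p = 5.2e-06). NaCl cells were 0.47 above untreated cells (1.39-fold, adjusted p = 0.000657), so this contrast with NaCl was wider than the −0.25 against untreated cells (adjusted p = 0.0244).

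The latter difference of MYCL was not past 0.05 without L-lactate array 1 (adjusted p = 0.065), L-lactate array 4 (0.0647), untreated array 1 (0.0657) or untreated array 3 (0.0554). It was also 0.0557 with the 10 arrays of the comparison alone and 0.0553 with array medians made equal. MXD3, a repressor of the MXD type, and MGA, a large MAX partner, had adjusted p-values from 0.469 to 0.968 in the 3 comparisons.

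Among the listed genes, TXNIP and ARRDC4, both targets of the MLX arm, had the largest differences. Of 18 genes listed as targets of MondoA or ChREBP, 3 were up-regulated in L-lactate against NaCl and none was down-regulated: TXNIP, ARRDC4 and KLF10. Of all 26773 clusters, 344 were up-regulated and 161 down-regulated in that comparison. TXNIP and ARRDC4 were known to rise in these samples when the list was written, so it is not independent evidence of its direction. TXNIP, an arrestin-family protein that limits glucose uptake, read 8.56, 9.11, 8.66, 8.61 and 8.88 under L-lactate and 4.22, 4.21, 4.20, 4.27 and 4.38 under NaCl. It rose by 4.51 against NaCl (SE 0.09, adjusted p = 6.33e-13). ARRDC4, its close relative, rose by 2.98 (8.15 ± 0.16 against 5.17 ± 0.12, adjusted p = 4.93e-12). In untreated cells both genes were at the NaCl level, with TXNIP at 4.25 ± 0.13 and ARRDC4 at 5.23 ± 0.12.

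KLF10, a zinc finger repressor, rose by 0.89 (8.05 ± 0.04 against 7.16 ± 0.05, adjusted p = 1.41e-10). Against untreated cells KLF10 was 0.54 higher (adjusted p = 1.23e-08), short of the fold criterion, and NaCl cells were below untreated cells by −0.35 (adjusted p = 4.03e-06). In L-lactate against NaCl without the fold criterion, 8 of 18 were higher and 1 lower, beside 10.7% and 11.5% of all clusters, and the median was 0.08. The median rested on the many dim genes of this list: it was 0.05 without L-lactate array 1, 0.12 without L-lactate array 2 and 0.37 when dim clusters were left out. Against untreated cells TXNIP (4.51), ARRDC4 (2.93) and FASN (0.66), the fatty acid synthase, were up-regulated. Of all 26773 clusters, 518 were up-regulated and 357 down-regulated in that comparison. ARRDC3 was down-regulated by −0.61 there, and NaCl cells showed nearly the same difference from untreated cells (−0.58, adjusted p = 3.08e-06, below the fold criterion).

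Many of the genes known to be activated by MYC were lower, most by small amounts. Of 46 such genes, 3 were down-regulated in L-lactate against NaCl and none was up-regulated, beside 161 and 344 of all 26773 clusters. Without the fold criterion 23 were lower and 4 higher, beside 11.5% and 10.7% of all clusters, and the median was −0.11 beside −0.01. PRPS2, which makes the phosphoribosyl pyrophosphate for nucleotide synthesis, read 6.63, 6.67, 6.56, 6.42 and 6.62 under L-lactate and 8.02, 8.03, 7.99, 8.02 and 7.86 under NaCl. It fell by 1.399 (SE 0.05, adjusted p = 1.57e-10), with a mean of 8.14 ± 0.08 in untreated cells.

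SLC1A5, the glutamine transporter, fell by 1.28 (6.48 ± 0.15 against 7.76 ± 0.13, adjusted p = 7.33e-09). SLC7A5, which exchanges glutamine for essential amino acids, fell by 0.70 (8.38 ± 0.09 against 9.09 ± 0.07, adjusted p = 4.2e-08). Both transporters are also known targets of the amino acid response factor ATF4. SLC1A5 was already lower in NaCl than in untreated cells, by −0.56 (adjusted p = 8.87e-05), and against untreated cells L-lactate lowered it by −1.85.

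Further textbook MYC targets, named after their values were seen, were lower without reaching 1.5-fold. IMPDH2, which controls guanine nucleotide synthesis, differed by −0.46 (adjusted p = 7.13e-07), the cell cycle kinase CDK4 by −0.26 (adjusted p = 1.3e-05), ODC1 of polyamine synthesis by −0.25 (adjusted p = 0.000711) and the nucleolar protein NCL by −0.16 (adjusted p = 0.00154). The 4 that were higher at the adjusted p were LDHA (0.37), the lactate dehydrogenase subunit, HSPE1 (0.23), EIF4EBP1 (0.18) and TFRC (0.13). Against untreated cells 26 of the 46 were lower and 2 higher at the adjusted p, beside 13.7% and 13.3% of all clusters. The median there was −0.15, and the same 3 genes were down-regulated, beside 357 of all 26773 clusters. Between NaCl and untreated cells 7 were lower and 1 higher at the adjusted p, beside 5.81% and 6.13% of all clusters. None of the 46 was past the fold criterion in that comparison. PRPS2 and SLC1A5 were known to change in these samples when the list was written, so the list is not independent evidence of its direction.

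**Figure D4:**
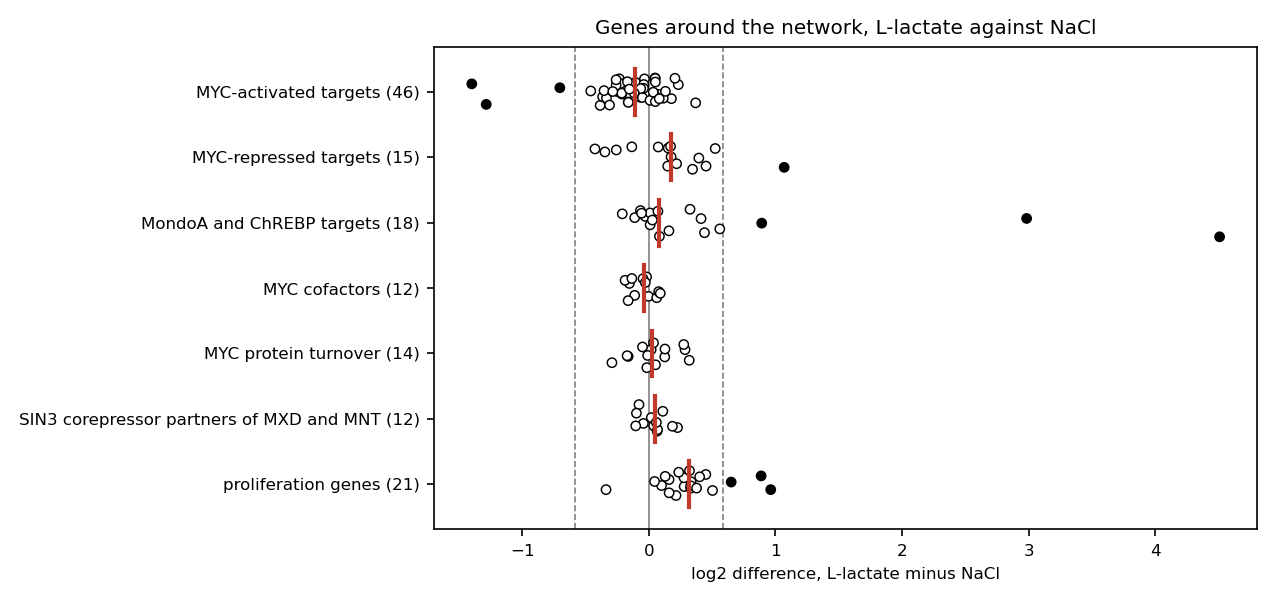
Differences in log2 signal for the genes of each list in L-lactate against NaCl, with a point for each gene, a red bar for the median of the list, dashed lines at the 1.5-fold threshold and filled points for differentially expressed genes. MYC-activated genes lie mostly below 0 (median −0.11) and proliferation genes mostly above 0 (median 0.32), while TXNIP (4.51) and ARRDC4 (2.98) lie far above the other MondoA and ChREBP targets.

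Genes known to be repressed by MYC lay mostly on the other side. Of 15, CDKN1C was up-regulated in L-lactate against NaCl and none was down-regulated, beside 344 and 161 of all 26773 clusters. Without the fold criterion 9 were higher and 3 lower, beside 10.7% and 11.5% of all clusters, and the median was 0.17. Without NaCl array 2 the number up-regulated was 2. CDKN1C, an inhibitor of cyclin-dependent kinases, read 5.73 to 6.02 under L-lactate and 4.51 to 4.91 under NaCl, a rise of 1.07 (adjusted p = 3.03e-07). Against untreated cells CDKN1C (0.76) and GAS1 (0.62), a growth arrest gene, were up-regulated, and GADD45A, a stress sensor, was down-regulated by −0.93. Of all 26773 clusters, 518 were up-regulated and 357 down-regulated there. The median of the list was 0.03, with 6 higher and 3 lower at the adjusted p, beside 13.3% and 13.7% of all clusters. NaCl against untreated cells gave CLU as the down-regulated gene of this list (−0.83), beside 199 of all 26773 clusters.

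Of 21 cyclins, kinases and replication genes, 3 were up-regulated in L-lactate against NaCl and none was down-regulated. Of all 26773 clusters, 344 were up-regulated and 161 down-regulated. At the adjusted p alone, 16 of the 21 genes were higher and 1 lower (CCNE2, −0.34), beside 10.7% and 11.5% of all clusters. The median was 0.32 beside −0.01 for all clusters, and MKI67, CCNB1, TYMS and AURKB did not pass (adjusted p from 0.0892 to 0.722). CCND1, the cyclin that takes cells out of rest, read 6.98, 6.99, 6.50, 6.97 and 6.87 under L-lactate and 5.93, 5.64, 5.94, 5.92 and 6.05 under NaCl. It rose by 0.96 (SE 0.10, adjusted p = 5.68e-06). RRM2, the ribonucleotide reductase subunit of S phase, rose by 0.89 (adjusted p = 4.55e-06) and CDK2 by 0.65 (adjusted p = 8.82e-06). This list was also written with the paper known, which names CCND1, so it is not independent evidence either.

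Against untreated cells 5 proliferation genes were up-regulated and none was down-regulated, beside 518 and 357 of all 26773 clusters. At the adjusted p alone, 19 of 21 were higher and 1 lower, beside 13.3% and 13.7% of all clusters. The largest values were those of CCND1 (1.33) and RRM2 (1.00). NaCl differed less from untreated cells, with 2 higher at the adjusted p, beside 6.13% of all clusters, and a median of 0.09.

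Genes that act on MYC protein differed by less than 1.5-fold against NaCl. Of 14 turnover genes, limma called 0 past both criteria in L-lactate against NaCl. At the adjusted p 4 were higher and 3 lower, beside 10.7% and 11.5% of all clusters. The number at an unadjusted p below 0.05 was 7, a level at which the share of all clusters was not computed. FBXW7, the ubiquitin ligase subunit that marks phosphorylated MYC for degradation, read 5.32, 5.33, 5.36, 5.26 and 5.34 under L-lactate, 5.60, 5.75, 5.57, 5.64 and 5.51 under NaCl, and 6.18, 6.18, 6.22, 6.15 and 6.04 in untreated cells. It formed steps without overlap, as MXD1 did.

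Against untreated cells FBXW7 was down-regulated by −0.83 (SE 0.04, adjusted p = 3.11e-09), and −0.54 of this was already present under NaCl (adjusted p = 1.29e-06). Among 12 MYC cofactors and 12 SIN3 corepressor genes limma called 0 past both criteria in each of the 3 comparisons, although without untreated array 4 the count of cofactors was 1 in L-lactate against untreated cells. In L-lactate against NaCl, 3 cofactors were lower at the adjusted p and 3 SIN3 genes higher, beside 11.5% and 10.7% of all clusters. At an unadjusted p below 0.05, where between 5941 and 9973 of all 26773 clusters passed, 6 cofactors and 5 SIN3 genes did. The medians of the cofactors and the SIN3 genes were −0.04 and 0.05.

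Marker genes of cell state moved in the same comparisons, and their part in the network values was not tested. In L-lactate against NaCl the aromatase gene CYP19A1 was down-regulated by −1.22 and AMH by −0.74, while FOXL2 was 0.58 and FSHR 0.29 lower. Against untreated cells the differences were smaller: −0.77 for CYP19A1, −0.36 for AMH, −0.39 for FOXL2 and −0.08 for FSHR (limma, adjusted p = 0.258). NaCl cells were above untreated cells by 0.46 for CYP19A1, 0.38 for AMH, 0.21 for FSHR and 0.19 for FOXL2 (limma, adjusted p = 0.069 for FOXL2). The summed signal of the 8 granulosa markers (log2 of the sum of linear signals) was 12.64 to 12.72 under L-lactate, 12.86 to 12.94 under NaCl and 12.76 to 12.81 in untreated cells. The 5 leukocyte markers summed to 6.73 to 6.90, 6.48 to 6.64 and 6.66 to 6.83, and the 5 endothelial markers to 6.28 to 6.45, 6.21 to 6.29 and 6.10 to 6.21. The 5 stromal markers summed to 12.12 to 12.22, 12.05 to 12.19 and 12.25 to 12.35, and they moved in opposite directions. PDGFRA was 0.59 higher in L-lactate than in NaCl and 0.86 higher than in untreated cells, and COL3A1 differed by −0.43 and −1.10. COL3A1 was already lower in NaCl than in untreated cells, by −0.67. The 4 theca markers summed to 12.12 to 12.16, 12.07 to 12.12 and 11.99 to 12.06, a sum carried by HSD3B1 (means 12.05, 11.99 and 11.89). The paper describes HSD3B1 as a progesterone synthesis gene that granulosa cells express, so this sum does not measure theca cells. INSL3 was lower than in untreated cells by −0.69 under L-lactate and −0.64 under NaCl. The 5 oocyte markers summed to 5.36 to 5.49, 5.45 to 5.54 and 5.46 to 5.60.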

How the data were processed

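RNA of 15 samples of cultured bovine granulosa cells (5 per group) was hybridised to Affymetrix Bovine Gene 1.0 ST arrays. The authors corrected background, normalised and summarised the probes with RMA in Expression Console 1.4.1.46, and they deposited 1 log2 signal for each cluster and array. The genome build behind the clusters is not given in the sources used here, and microarrays have no read depth, so the number of arrays limits the precision. Clusters were named through the platform annotation, and the Entrez identifiers of all 10 members matched RefSeq.

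All 26773 clusters on all 15 arrays were fitted without a replicate block in limma 3.58.1 (R 4.3.3), with the group as the factor and Benjamini-Hochberg adjustment over all clusters. Differentially expressed means adjusted p below 0.05 and fold change above 1.5, as in the methods of the study. The fit was tested on simulated data. Exact two-sided permutation tests used 252 labellings. Arrays with the same replicate number did not deviate together (correlations from −0.07 to 0.07 over 15 pairs), so the numbers were not taken as pairs.

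The members and the gene lists were chosen with earlier results of these data known. Lists came from general knowledge and are described by counts and medians, beside all clusters. Named were all members, 3 further network genes, in each list up to 4 of the differentially expressed genes with the largest difference against NaCl and such genes of the other comparisons, and the 5 most alike and 3 most opposite genes for MYC and MXI1, except where the text says that a gene was named after its values were seen. Where a list gene had several clusters, the brightest was used. Alternatives were the 10 arrays of a comparison alone, no moderation of the variance, a robust prior with a trend, a replicate block, equal array medians, a second quantile normalization, a filter on dim clusters, array weights, other fold thresholds and leaving out each array. No promoter or protein sequence was used here, and a planned search for the E-box in promoters was not run. Figures were drawn with matplotlib 3.10.9.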

Additional observations from a re-analysis of the deposited data

Results flagged for a closer look

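Across the 30 sets of 5 arrays (10 members in 3 groups), 2 held an array far from its group by Dixon's criterion at a ratio above 0.71, about the number that chance gives at the 95% level. MNT was low on NaCl array 5, at 5.14 against a next lowest value of 5.34 (ratio 0.788). MLXIPL was low on L-lactate array 5, at 4.203 against a next lowest value of 4.41 (ratio 0.727). Neither gene passed the test between L-lactate and NaCl, with all arrays or without these.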

How the results depend on the processing

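The 10 members were recomputed in 3 comparisons under 23 alternatives. Of 690 differences, 688 kept their direction and their status by both criteria together. Part of this count was fixed in advance. Leaving out an array of the group outside the comparison, or estimating the variance in another way, does not move the difference itself. The adjusted p alone crossed 0.05 under some alternatives for MYCN in L-lactate against NaCl (up to 0.109). It also did so for MLX in NaCl against untreated cells (up to 0.0756). MYC lay between −1.28 and −1.21 against NaCl and between −1.20 and −1.13 against untreated cells, and MXI1 between 0.73 and 0.775 and between 0.78 and 0.86, and both were differentially expressed under all 23. The 2 differences that changed sign were close to 0 and never past the test. MLXIPL in L-lactate against NaCl ran from −0.08 to 0.016 when arrays were left out, and MNT in L-lactate against untreated cells from −0.09 to 0.007. MXD3 in all comparisons and MGA in 1 also changed sign. When arrays were left out, MXD3 ran from −0.073 to 0.042 (L-lactate against NaCl), from −0.104 to 0.063 (L-lactate against untreated) and from −0.074 to 0.093 (NaCl against untreated), and MGA from −0.001 to 0.060 in L-lactate against untreated cells. In that comparison MXD3 was 0.006 with equal array medians and 0.006 with array weights. The causes were not tested. The fold threshold set the counts most. Without it, 5941, 7254 and 3195 clusters and 5, 8 and 5 members passed in L-lactate against NaCl, L-lactate against untreated and NaCl against untreated cells. With a fold above 1.2, 2775, 3676 and 1458 clusters and 4, 5 and 2 members passed. With the replicate number as a block, 507, 873 and 302 clusters and 2, 2 and 0 members were differentially expressed, although the numbers gave no sign of pairing, and MYCN against NaCl had an adjusted p of 0.0517. When arrays were left out, the counts were 503 to 527, 832 to 899 and 287 to 323 clusters, and 2, 2 and 0 members. Members at the adjusted p were then 4 to 5, 8 and 4 to 5. ARRDC3 lost its call against untreated cells with equal array medians (−0.581) and without untreated array 1 (−0.583). The count of MYC-activated genes in NaCl against untreated cells was 1 without NaCl array 2, and that of MondoA and ChREBP targets 1 without NaCl array 2 or 3 or untreated array 4 or 5. PDGFRA was not called against NaCl without L-lactate array 1 or 5 or NaCl array 3 or 4. A filter on dim clusters kept 13744 clusters and all members. MYCN and MLXIPL lie near the array medians, where signal over background limits what a difference can show.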
